A study of Mus musculus with 6 samples.

Results

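The 8 mature miRNAs described here are both arms of 4 mouse hairpins, Mir3073b, Mir149, Mir455 and Mir1843a, and all 8 are among the 1546 mature miRNAs with deposited values. The hairpins were chosen from these data, because each had an arm whose lowest MAFLD value exceeded its highest NC value with a large difference in level, and the partner arm was taken with it. The difference between the groups is therefore a description and no test of these arms. The libraries hold small RNA from liver of male C57BL/6 mice, for which no genetic change is named. There were 3 from the NC group, fed a normal diet, and 3 from the MAFLD group, fed a high-fat diet as a model of metabolic dysfunction-associated fatty liver disease. Feeding started at 8 weeks of age and lasted 16 weeks, and each diet had 6 mice. The labels number the libraries 1 to 3 within a group but do not say that each is a separate mouse, so errors measure the spread between these libraries. The growth and treatment notes of these samples concern HepG2 cells, a human liver cancer line, although each sample is named as liver tissue.

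A miRNA gene is transcribed into an RNA that folds into a hairpin, from which Drosha and then Dicer cut a short duplex. Either strand of the duplex, the 5p or the 3p arm, can be loaded into an Argonaute protein, where bases 2 to 8 of the strand, its seed, pair with target mRNAs, and the strand that is not loaded is usually degraded. The levels of the 2 arms of a hairpin can therefore differ widely although they come from the same transcript. MiR-149 lies in an intron of Gpc1, which encodes the cell-surface proteoglycan glypican-1. MiR-455 lies in an intron of Col27a1, a fibrillar collagen gene of cartilage, and is known from cartilage and from the formation of brown fat cells.

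The mature sequences of the arms that were higher in all MAFLD livers are shown first, from RefSeq on GRCm38.p6, 5′ to 3′, with the seed in capitals, because each seed defines a separate set of possible targets.
mmu-miR-3073b-3p: cUGGCGCCaacugugaccacug
mmu-miR-1843a-3p: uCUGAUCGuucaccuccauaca
mmu-miR-149-5p: uCUGGCUCcgugucuucacuccc
mmu-miR-455-3p: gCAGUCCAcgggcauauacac

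Their partner arms from the same hairpins are given in the same way.
mmu-miR-3073b-5p: aUGGUCACaguggacaucaacc
mmu-miR-1843a-5p: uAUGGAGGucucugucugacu
mmu-miR-149-3p: gAGGGAGGgacgggggcggugc
mmu-miR-455-5p: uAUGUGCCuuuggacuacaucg

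The 8 arms had 8 different seeds, so no member shared its seed with another member. MiR-3073b-5p shared its seed with the listed miR-3073a-5p, miR-149-3p with miR-1943-5p and miR-455-5p with miR-5129-3p, and these 3 others did not pass the filter used below, a mean of 1 read per 1000000 miRNA reads (CPM). The arms were 21 to 23 nt long, and 4 of the 8 started with U. Their GC content ran from 45.5% in miR-455-5p and miR-1843a-3p to 81.8% in miR-149-3p, against a median of 52% over the 1312 listed miRNAs with a RefSeq sequence. MiR-149-3p was thus more GC-rich than 99.1% of them.

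The 4 hairpins lie at separate places of the genome. In GRCm38, Mir149 (ENSMUSG00000065470.1) covers chr1:92850378-92850443 on the plus strand, in an intron of Gpc1. Mir455 (ENSMUSG00000070102.1) covers chr4:63256851-63256932 on the plus strand, in an intron of Col27a1. Mir1843a (ENSMUSG00000105972.1) covers chr12:80391613-80391677 on the minus strand, in an intron of Dcaf5, which encodes a substrate receptor of a ubiquitin ligase. All 65 bases of Mir1843a also lie within Scarna3b, an annotated small Cajal body RNA gene on the same strand, a class of RNA that guides the modification of spliceosomal RNAs. Mir3073b (ENSMUSG00000106228.1) covers chr12:112109250-112109309 on the minus strand, opposite an intron of the asparaginase gene Aspg. It is the antisense of Mir3073a (ENSMUSG00000093090.1) on the plus strand, and the hairpins overlap over 60 bases. MiR-3073b-3p and miR-3073a-5p are complementary over 20 bases, as are miR-3073b-5p and miR-3073a-3p.

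**Figure D1:**
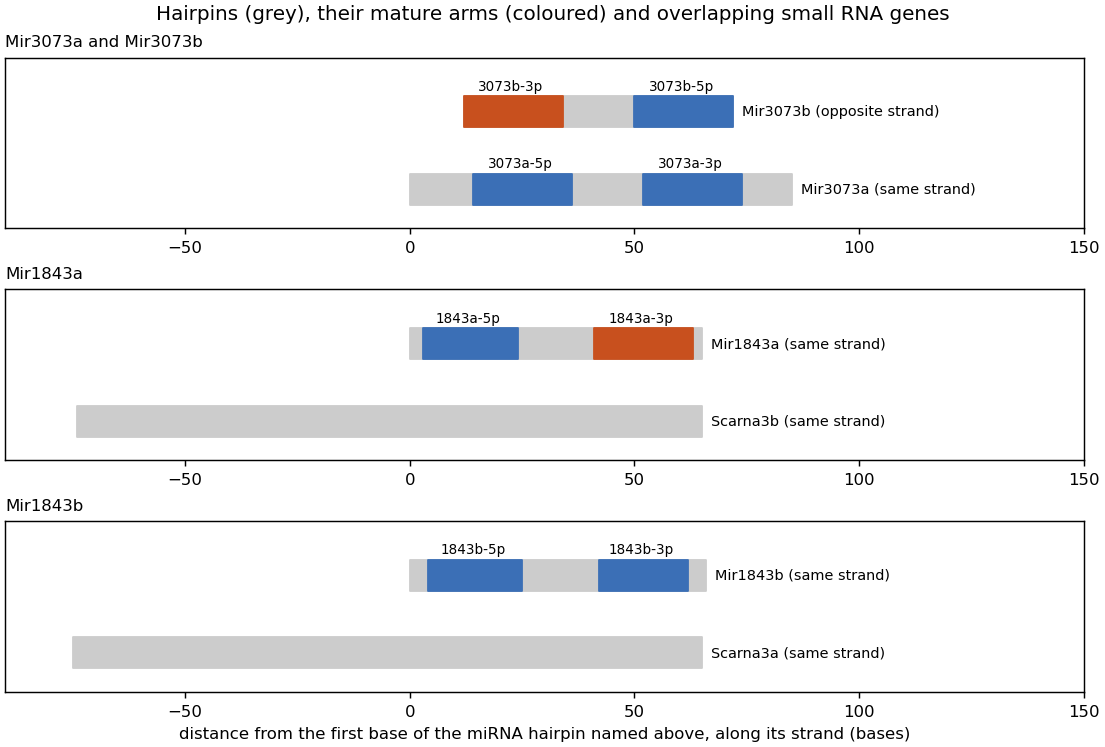
Bars on the x axis (distance in bases from the first base of a hairpin, along its strand) show the hairpins and overlapping small RNA genes in grey, the arms that were higher in all MAFLD livers in orange and other arms in blue. Mir3073a and Mir3073b overlap over 60 bases on opposite strands, and Mir1843a (65 bases) and 65 bases of Mir1843b lie within small Cajal body RNA genes on the same strand.

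A pair of relatives with sequences close to the members bear on how the values can be read, and their arms are shown for comparison with those above.
mmu-miR-1843b-5p: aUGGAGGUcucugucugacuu
mmu-miR-1843b-3p: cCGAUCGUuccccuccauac
mmu-miR-3073a-5p: gUGGUCACaguuggcgccagcc
mmu-miR-3073a-3p: uUGAUGUCcacugugaccauag

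MiR-1843a-5p and miR-1843b-5p share 20 consecutive bases, while miR-1843a-3p and miR-1843b-3p share at most 9 in a row. Outside that run the 3p arms are also closely alike, with single mismatched bases between matching stretches. Mir1843b covers chr1:159340358-159340423 on the plus strand of GRCm38, in an intron of Cop1, and 65 of its bases lie within Scarna3a. The deposited values do not say how reads on several miRNAs were assigned, nor do they separate miRNA reads from reads of an overlapping small RNA gene.

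The libraries held between 1336935 and 4685712 reads on miRNAs, recovered from the deposited CPM values (reads on a miRNA per 1000000 reads on all listed miRNAs). A level of 3 reads, taken as the smallest the depth can show, lay between 0.640 and 2.24 CPM. MiR-148a-3p took from 48.5% to 71.4% of the reads in NC and from 46.8% to 56.7% in MAFLD livers, so the CPM of all other miRNAs depends in part on it. The hepatocyte miRNA miR-122-5p stood between 42159 and 85150 CPM in NC and between 55196 and 70527 CPM in MAFLD livers, so the defining miRNA of the labelled tissue was present in all 6 libraries. The 501 miRNAs that passed the filter are called tested, and their median log2 difference of MAFLD minus NC livers was 0.43 on the log2(CPM + 1) scale. It was 0.044 with median-ratio scaling, in which the typical miRNA is brought to the same level in every library. Differences are therefore also given relative to this median.

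MiR-3073b-3p showed the largest difference of the members. It was read 8, 3 and 14 times in NC replicates 1 to 3, which is 3.14, 1.91 and 10.5 CPM. In the MAFLD libraries it was read 110, 85 and 45 times, which is 41.3, 18.1 and 29.3 CPM. All MAFLD livers lay above all NC livers, and NC replicate 3 was the highest control. The 95% Wilson interval of NC replicate 3 ended at 17.6 CPM, and that of MAFLD replicate 2, the lowest of its group, began at 14.7 CPM, so these intervals of counting error overlapped. NC livers averaged 5.17 ± 4.63 CPM (SD, n = 3) and MAFLD livers 29.6 ± 11.6 CPM (SD, n = 3). The log2 difference was 2.49 (standard error 0.57), 2.06 above the median of all tested miRNAs. As these are bulk livers, more cells with a miRNA and more of it per cell cannot be told apart.

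MiR-3073b-5p, the other arm, was scarce. It was read 4, 0 and 1 times in NC and 6, 2 and 5 times in MAFLD libraries, and its mean was 0.772 ± 0.785 CPM (SD, n = 3) against 1.98 ± 1.44 CPM (SD, n = 3). The groups overlapped, and a difference was not detectable at this depth (log2 difference 0.71, standard error 0.65). On the opposite strand, miR-3073a-3p was read 1 to 3 times in each of the 6 libraries, and miR-3073a-5p was read once in NC replicate 3 and not in the others. The antisense hairpin thus had no more than 3 reads of an arm in any library, including the 3 in which miR-3073b-3p reached 45 to 110 reads.

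MiR-149-5p separated the groups with the smallest spread among NC livers (log2 scale) of the 4 higher arms. It stood at 11.0, 14.7 and 12.0 CPM in NC livers, from 28, 23 and 16 reads. In MAFLD livers it stood at 51.8, 27.1 and 63.2 CPM, from 138, 127 and 97 reads. The Wilson intervals of the groups did not overlap, as the highest in NC, that of replicate 2, ended at 22.0 CPM and the lowest in MAFLD, that of replicate 2, began at 22.8 CPM. NC livers averaged 12.5 ± 1.90 CPM (SD, n = 3) and MAFLD livers 47.4 ± 18.5 CPM (SD, n = 3). The log2 difference was 1.76 (standard error 0.47), 1.33 above the median of all tested miRNAs. MiR-149-3p had a single read in all 6 libraries together, in MAFLD replicate 3, and so did not pass the filter.

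MiR-455-3p was the most abundant of the higher arms. It stood at 76.5, 38.2 and 95.0 CPM in NC livers, from 195, 60 and 127 reads, and at 216, 204 and 143 CPM in MAFLD livers, from 575, 958 and 220 reads. All MAFLD livers lay above all NC livers, with NC replicate 2 the lowest. NC livers averaged 69.9 ± 28.9 CPM (SD, n = 3) and MAFLD livers 188 ± 38.9 CPM (SD, n = 3), with a log2 difference of 1.49 (standard error 0.43), 1.06 above the median of all tested miRNAs. MiR-455-5p, position 28 of all listed miRNAs by mean CPM, stood at 1692, 1515 and 1844 CPM in NC and at 2357, 2067 and 1814 CPM in MAFLD livers. MAFLD replicate 3 lay below NC replicate 3, so the groups overlapped. Its log2 difference was 0.30 (standard error 0.29), which is 0.13 below the median of all tested miRNAs.

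MiR-1843a-3p was scarce in NC livers, with 9, 2 and 9 reads, which is 3.53, 1.27 and 6.73 CPM. In MAFLD livers it had 44, 44 and 31 reads, which is 16.5, 9.39 and 20.2 CPM. All MAFLD livers lay above all NC livers, but the Wilson interval of NC replicate 3, which ended at 12.8 CPM, overlapped with that of MAFLD replicate 2, which began at 7.00 CPM. NC livers averaged 3.85 ± 2.74 CPM (SD, n = 3) and MAFLD livers 15.4 ± 5.50 CPM (SD, n = 3), with a log2 difference of 1.87 (standard error 0.57), 1.44 above the median of all tested miRNAs.

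MiR-1843a-5p was far more abundant, at 317, 337 and 481 CPM in NC and at 416, 400.2 and 460.1 CPM in MAFLD livers. NC replicate 3 was the highest of all 6 libraries, so the groups overlapped, and the log2 difference was 0.19 (standard error 0.34). Its values cannot be assigned to Mir1843a alone. The reads of miR-1843a-5p and miR-1843b-5p differed by 0 to 3 in each library, at 529 to 1875 reads each, so nearly equal reads stand under both names.

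The 3p arms of the Mir1843 loci are alike but not identical in sequence, and their values went in opposite directions. Whether reads of either 3p arm were counted under the other was not tested. MiR-1843b-3p was read 24, 22 and 13 times in NC and 17, 46 and 6 times in MAFLD libraries, with a mean of 11.1 ± 2.57 CPM (SD, n = 3) against 6.70 ± 2.97 CPM (SD, n = 3). Its groups overlapped, and its log2 difference was -0.70 (standard error 0.51). Of the reads on both 3p arms, miR-1843a-3p made up 27.3%, 8.33% and 40.9% in NC and 72.1%, 48.9% and 83.8% in MAFLD libraries. The share was higher in all MAFLD than in all NC libraries, and as a ratio within a library it does not depend on the scaling to total reads. The Wilson intervals of NC replicate 3 (23.3% to 61.3%) and MAFLD replicate 2 (38.8% to 59.0%) overlapped. Because miR-1843a-3p was chosen for its difference, this share was not tested.

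**Figure D2:**
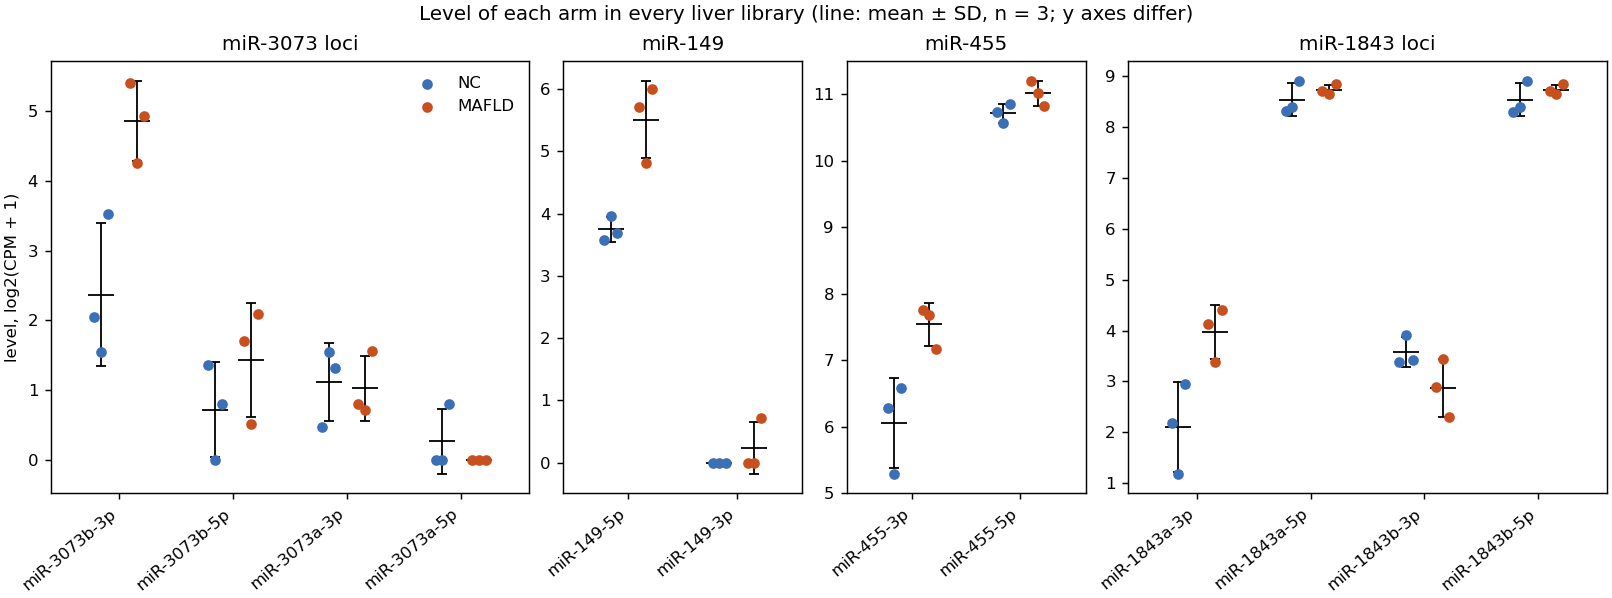
Points give the level of each arm in log2(CPM + 1) on the y axis for the NC (blue) and MAFLD (orange) libraries, for the 8 members and the arms of Mir3073a and Mir1843b, with lines for mean and SD (n = 3). MiR-3073b-3p, miR-149-5p, miR-455-3p and miR-1843a-3p are higher in all MAFLD than in all NC libraries, while their partner arms and the relatives overlap.

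Of the 8 arms, 7 passed the filter. In 4 of these 7 all MAFLD livers lay above all NC livers, an order found for 15.2% of all 501 tested miRNAs, and the rule itself fixes this count. In 0 of the 7 did all MAFLD livers lie below all NC livers, an order found for 4.19%. Sorted by log2 difference, the 76 miRNAs with this order had miR-3073b-3p in position 2, miR-1843a-3p in position 4, miR-149-5p in position 5 and miR-455-3p in position 11. MiR-455-3p, the last of these at 1.49, was followed by miR-872-3p at 1.45, which was not chosen. Above it lay 7 miRNAs that were not chosen either, from miR-802-5p at 2.60 to miR-20b-5p at 1.53. The rule named no number for a large rise. The partner arms were in positions 148, 283 and 310 of the 501 by log2 difference.

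**Figure D3:**
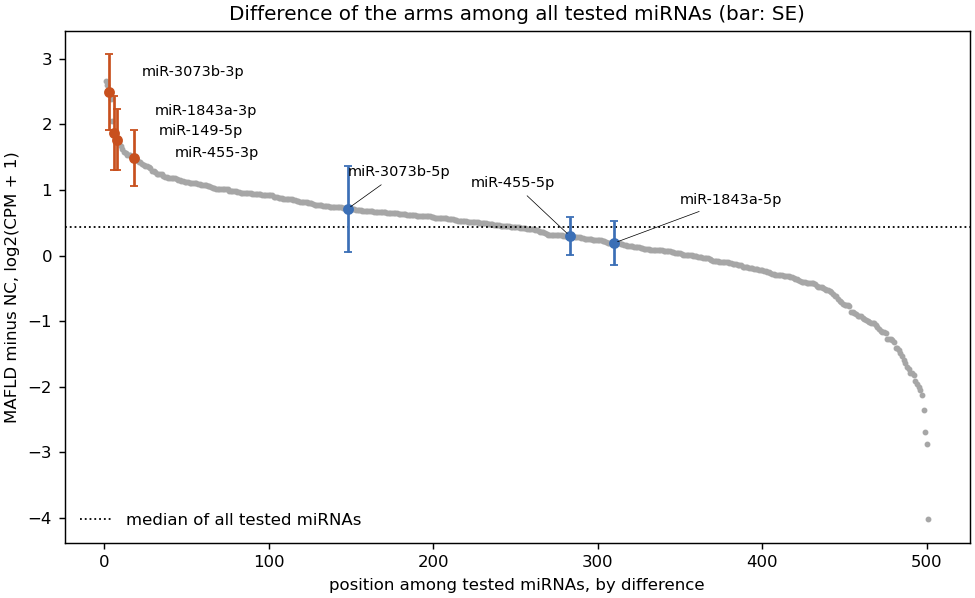
Grey points give the log2 difference (MAFLD minus NC, log2(CPM + 1), y axis) of the 501 tested miRNAs in order (x axis), with the higher arms in orange and their partners in blue, and bars for the standard error. The 4 higher arms lie between 1.49 and 2.49, and their 3 tested partners between 0.19 and 0.71, around the dotted median of 0.43.

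The fit with limma across all 501 miRNAs called 0 of the 7 tested arms at a Benjamini-Hochberg adjusted p under 0.05, where it called 0.200% of all miRNAs, and 4 of the 7 at an unadjusted p under 0.05, where it called 18.0%. With edgeR on the recovered reads 0 of 7 passed the adjusted threshold (0.200% of all), and with DESeq2 2 of 7 did, miR-3073b-3p and miR-149-5p, both higher in MAFLD livers (5.59% of all in either direction and 1.40% higher). Without NC replicate 3, which had the lowest share of miR-148a-3p among the NC livers, limma called all 4 higher arms, along with 22.8% of all miRNAs, 19.0% in the higher direction. The log2 difference was then 3.07 for miR-3073b-3p, 2.29 for miR-1843a-3p, 1.75 for miR-455-3p and 1.74 for miR-149-5p, against a median of 0.67 for all tested miRNAs. Since the arms were taken from this contrast, nothing is read from these counts.

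With median-ratio scaling 3 of the 4 higher arms still had all MAFLD above all NC livers (11.6% of all miRNAs), while miR-455-3p overlapped, at 49.3 to 121 scaled CPM in NC and 110 to 212 in MAFLD livers. With CPM computed without miR-148a-3p all 4 kept this order (14.0% of all miRNAs). The 4 higher arms had a log2 difference above 0 under each alternative that tested them. It ran from 1.80 to 3.07 for miR-3073b-3p, from 1.31 to 2.11 for miR-149-5p, from 1.21 to 2.29 for miR-1843a-3p and from 0.98 to 1.75 for miR-455-3p. The 5 alternatives that scaled the libraries in another way lowered the median of all tested miRNAs to between -0.0049 and 0.16. MiR-455-5p and miR-1843a-5p then lay below 0, but relative to the median both lay below it as before, at -0.44 to -0.19 and at -0.32 to -0.25.

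**Figure D4:**
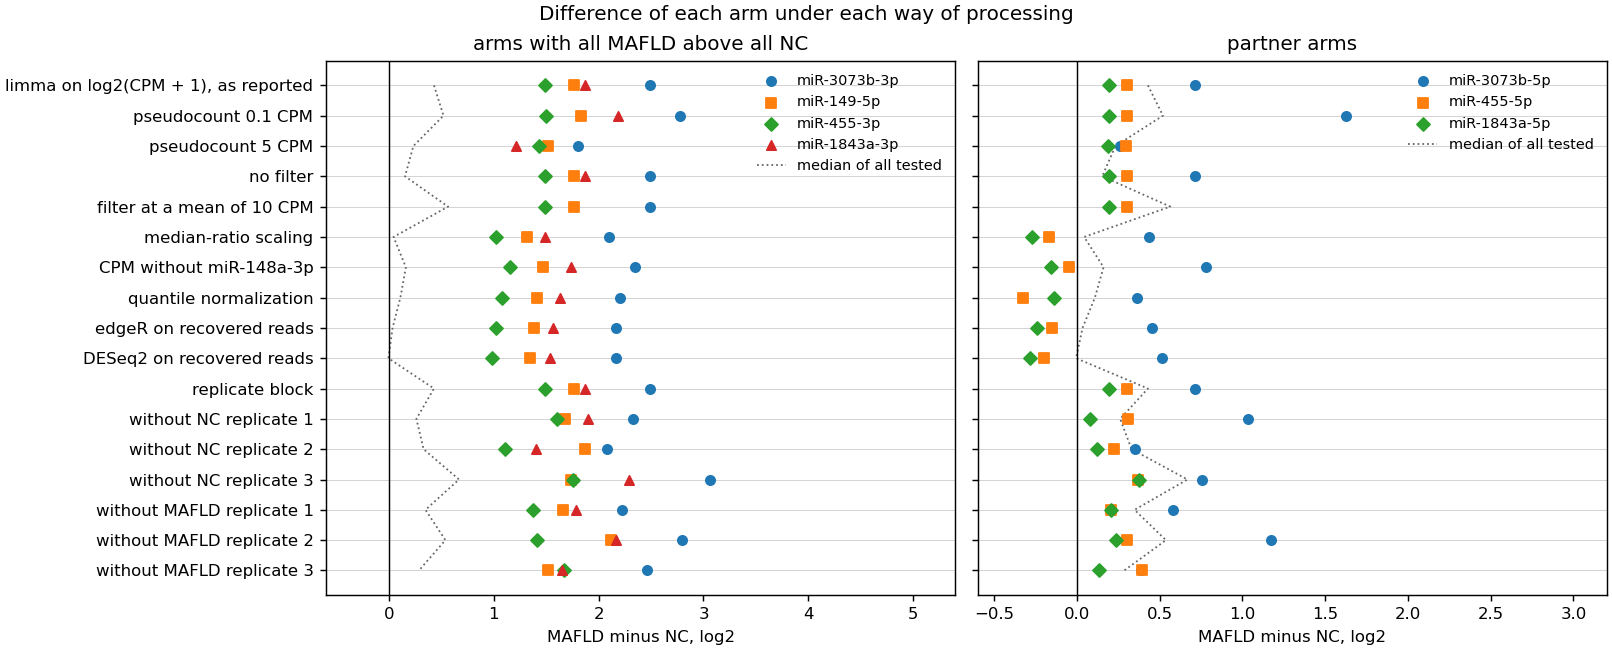
Points give the log2 difference (MAFLD minus NC, x axis) of each arm under each way of processing (y axis), with the higher arms on the left, the tested partners on the right and the median of all tested miRNAs as a dotted line. The higher arms stay between 0.98 and 3.07, while miR-455-5p and miR-1843a-5p lie below the dotted median as reported and under the 5 alternatives that scale the libraries in another way, which lower this median.

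The rule did not compare the arms of a hairpin with each other, but it used the same 6 libraries, and a chosen arm that is high in MAFLD livers adds to its own side of this comparison. In the NC libraries alone the order of the arms was the same. For miR-3073b it rested there on 8, 3 and 14 reads of the 3p arm against 4, 0 and 1 of the 5p arm. The 5p arm exceeded the 3p arm in 6 of 6 libraries for miR-149, miR-455 and miR-1843a, and the 3p arm exceeded the 5p arm in 6 of 6 for miR-3073b. The mean difference of log2(CPM + 1), 5p minus 3p, was 5.60 ± 1.05 for miR-1843a, 4.51 ± 0.89 for miR-149, 4.07 ± 0.74 for miR-455 and -2.54 ± 1.21 for miR-3073b (SD, n = 6). A two-sided exact sign-flip permutation test gave p = 0.03125 for each, the smallest that 6 libraries allow, and 0.03125 after Benjamini-Hochberg adjustment over the 4 hairpins. The more abundant arm is the chosen one in miR-149 and miR-3073b and the partner in miR-455 and miR-1843a. Since the arms were chosen from these same values, the order is a description and nothing is read from these p-values. The sizes for miR-149, whose 3p arm had 1 read in all, and miR-3073b depend on the added 1 CPM, as they were 7.40 and -3.55 with 0.1 CPM and 2.53 and -1.50 with 5 CPM. Over all libraries the 3p arm made up 93.6% of the 283 reads of miR-3073b, 7.11% of the 30043 of miR-455, 2.39% of the 5809 of miR-1843a and 0.233% of the 430 of miR-149. The 95% Wilson interval for miR-149 was 0.0411% to 1.31%. The share of miR-1843a counts 5p reads that Mir1843b may have given.

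In miR-455 the arm that was higher in all MAFLD livers was the minor arm. The scarce arms of miR-149 and miR-3073b had too few reads to show whether they differed. The 3p arm of miR-455 took 4.32%, 2.46% and 4.90% of the reads of both arms in NC and 8.38%, 9.00% and 7.33% in MAFLD libraries, and the Wilson intervals of the groups did not overlap (highest end in NC 5.80%, lowest start in MAFLD 6.45%). The 3p arm of miR-1843a took 1.10%, 0.377% and 1.38% in NC and 3.81%, 2.29% and 4.21% in MAFLD libraries. Here the Wilson intervals overlapped, as that of NC replicate 3 ended at 2.60% and that of MAFLD replicate 2 began at 1.71%. The value of NC replicate 2 rested on 2 reads of the 3p arm, under the floor of 3 reads. Both shares were higher in all MAFLD than in all NC libraries. They compare arms within a library and so do not change with its scaling, but they rest on the arms the rule chose and were not tested.

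For miR-3073b the 3p share was 66.7%, 100% and 93.3% in NC, from only 12, 3 and 15 reads of both arms, and 94.8%, 97.7% and 90.0% in MAFLD libraries, and the groups overlapped. For miR-149 the 3p arm had 0 of 28, 0 of 23 and 0 of 16 reads in NC, which allows a share of up to 10.7%, 13.0% and 18.8% at 3 reads of the total, while the Wilson intervals end at 12.1%, 14.3% and 19.4%. In MAFLD libraries it had 0 of 138, 0 of 127 and 1 of 98 reads, and the zeros allow up to 2.17% and 2.36% (Wilson 2.71% and 2.94%). A difference in the arm share of miR-149 was thus not detectable at this depth.

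**Figure D5:**
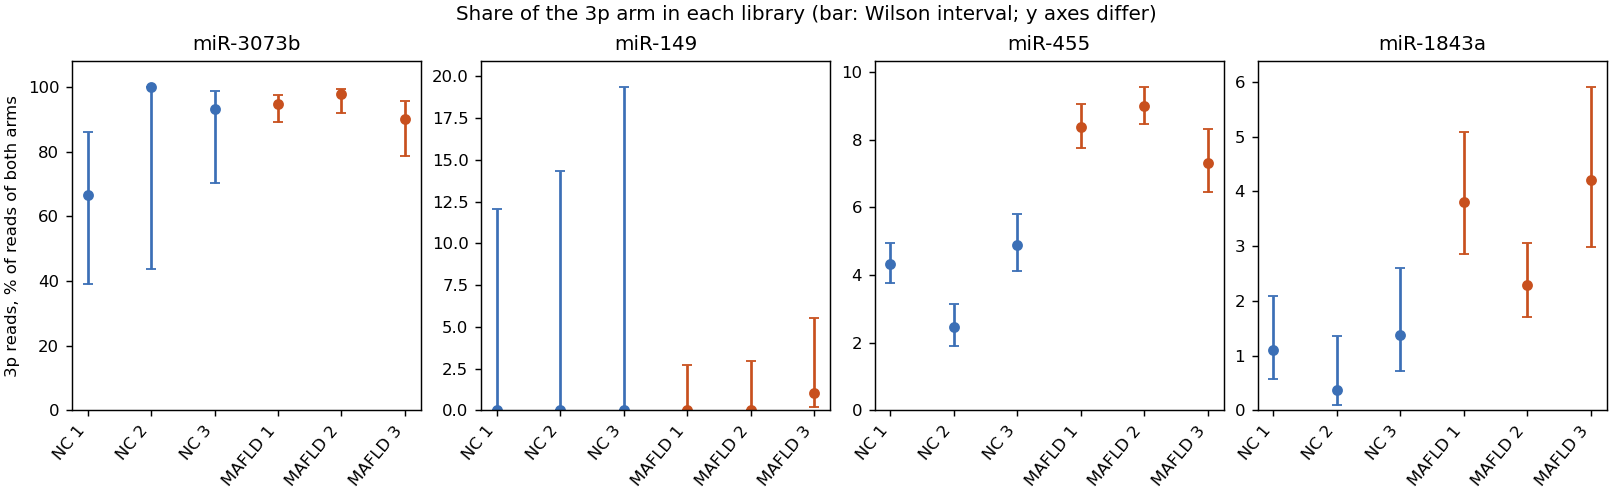
Points give the 3p reads as a percentage of the reads of both arms (y axis, different ranges) in each library (x axis), with 95% Wilson intervals that cover counting error only. The 3p share of miR-455 (2.46% to 4.90% in NC, 7.33% to 9.00% in MAFLD) and of miR-1843a (0.377% to 1.38% in NC, 2.29% to 4.21% in MAFLD) lies higher in the MAFLD libraries, while those of miR-3073b and miR-149 overlap. The intervals of miR-1843a overlap between the groups.

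Over the 105 hairpins with both arms tested, the minor arm had the larger log2 difference in 48 (45.7%), and the median of minor minus major was -0.056. MiR-1843a, at 1.67, was in position 2 of these 105 and miR-455, at 1.19, in position 6. MiR-3073b, at -1.78, was in position 105, the last, with a 5p arm that passed the filter through its MAFLD values, and it stood at -1.15, in position 95, with 0.1 CPM added. MiR-1843a and miR-455 were then in positions 4 and 11, and the position of miR-1843a rests on 5p reads shared with Mir1843b. These differences are from the contrast that chose the hairpins and were not tested.

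The profile of each higher arm over the 6 libraries was compared with those of all tested miRNAs that are not members, as the root mean square difference of log2(CPM + 1) after centring. MiR-802-5p was most like miR-3073b-3p, at 0.25, with 13.4 to 39.6 CPM in NC and 100.3 to 152 CPM in MAFLD livers. Nearest to miR-455-3p were miR-148b-5p, at 0.25, and miR-190a-5p, at 0.29. Nearest to miR-1843a-3p were miR-532-3p, at 0.32, and miR-872-3p, at 0.33. Nearest to miR-149-5p were miR-709, at 0.29, and miR-20b-5p, at 0.30. MiR-709 stood at 0 to 0.637 CPM in NC and 0.640 to 4.56 CPM in MAFLD livers. MiR-20b-5p had 0 reads in all NC libraries and stood at 0.854 to 3.38 CPM in MAFLD livers. Both passed the filter through their MAFLD values, so this likeness rests on few reads. MiR-532-3p was also the second most like miR-3073b-3p among the miRNAs that are not members, at 0.50. It stood at 0 to 2.24 CPM in NC and 2.13 to 5.63 CPM in MAFLD livers. The higher arms were chosen for their difference, so profiles near theirs share it. Among the members, miR-3073b-3p and miR-1843a-3p were the closest pair of higher arms, at 0.43. Both were higher in NC replicate 3 than in the other NC livers, but so were miR-455-3p, miR-455-5p and miR-1843a-5p.

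Lists of miRNAs typical of other cell types were summed in each library. The endothelial list (both arms of miR-126a) was at 4710 to 6587 CPM in NC and 7659 to 10155 CPM in MAFLD livers, so its sum was higher in the same livers as the higher arms. This sum is mostly miR-126a-3p. MiR-126a-5p alone overlapped between the groups, at 135 to 289 CPM in NC and 280 to 509 CPM in MAFLD livers. The part of the endothelial list in the differences of the higher arms was not tested. The sums of the other lists (hepatocyte, mesenchymal, immune, erythroid, epithelial, muscle, neural) overlapped between the groups, and the mesenchymal sum is mostly miR-143-3p. The median log2 difference was 0.81 in the mesenchymal, 0.80 in the immune and 0.85 in the endothelial list, against 0.43 for all tested miRNAs. Of the 5 hepatocyte miRNAs, whose sum is mostly miR-148a-3p, 2 were higher in all MAFLD livers, an order found for 15.2% of all tested miRNAs. These were miR-122-3p (147 to 224 against 271 to 399.6 CPM) and miR-192-5p (58194 to 74390 against 82161 to 97878 CPM). The median log2 difference of the 5 was 0.43, the same as for all tested miRNAs. The neural list summed to 50.1 to 744 CPM in NC and 44.2 to 63.9 CPM in MAFLD livers, and its 4 members had a median log2 difference of -2.11. With an adjusted p under 0.05, limma and edgeR each called 0 of these 4 (0.200% of all tested miRNAs). DESeq2 called 2 (5.59% of all) and limma without NC replicate 3 all 4 (22.8% of all). At an unadjusted p under 0.05, limma had 2 of the 4 lower, against 23 of all 501 tested miRNAs. The part of these miRNAs in the differences of the higher arms was not tested. No miRNA of these lists was at 0 in every library.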

How the data were processed

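The 6 libraries hold small RNA of mouse liver. Total RNA was treated to remove end groups and methyl marks that hinder ligation and reverse transcription, and short inserts were selected. For 1546 mature miRNAs the deposited unit is CPM, which the authors scaled to all listed miRNA reads of a library. The submitters' processing notes name FastQC, cutadapt, Bowtie, edgeR and GRCm38, and the miRNA database is not given in the sources used here. The 6 columns were mapped by name.

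Reads were recovered by dividing by the smallest value of each library, and 100% of values were whole to within 0.02. Depth ran from 1336935 to 4685712 reads. Wilson intervals (95%) and the floor of 3 reads cover counting error only. A miRNA was tested if it averaged 1 CPM or more (501 miRNAs), and log2(CPM + 1) was fitted with limma 3.58.1 in R 4.3.3 (eBayes with a trend, Benjamini-Hochberg adjustment, threshold 0.05). The added 1 CPM draws differences of scarce miRNAs towards 0. The arms of a hairpin were compared with an exact sign-flip permutation test (Python 3.11.15). Alternatives covered the pseudocount (0.1 and 5), the filter (none and 10 CPM), other scalings, edgeR 4.0.16 and DESeq2 1.42.0 on the recovered reads, a replicate block and each library left out in turn. The fits were tested on simulated data.

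The members, lists and tests were chosen with earlier results of these data known. Named beside the members were the arms of Mir3073a and Mir1843b, miRNAs that share a member's seed and pass the filter, the 2 miRNAs most like each higher arm, a list on brown fat cells, a cartilage list, the cell type lists, miR-148a-3p and miR-122-5p. MiR-1943-5p and miR-5129-3p were named after their values were seen. Sequences come from RefSeq (GRCm38.p6), which held all 8 members, and positions from GENCODE M21 (GRCm38). The experiments in cells and plasma were not analysed here.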

Additional observations from a re-analysis of the deposited data

How the results depend on the processing

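Over all 501 miRNAs the number past the adjusted p, 1 with limma, was 11 without the filter (1467 tested), 2 after median-ratio scaling, 2 in CPM without miR-148a-3p, 28 with DESeq2 and 5 with the replicate block. Leaving out a library gave 0 to 114 calls, with 0 without NC replicate 1 or 2 and without MAFLD replicate 1 or 2 (56, 40, 41 and 89 at an unadjusted p under 0.05), 114 without NC replicate 3, and 3 without MAFLD replicate 3. The cause was not tested. Of the 90 miRNAs at an unadjusted p under 0.05, 67 were higher and 23 lower in MAFLD livers, and this split became 36 and 45 once libraries were scaled by median ratio, 52 and 38 if miR-148a-3p was left out of the totals, 38 and 40 after quantile normalization, 37 and 50 in edgeR, and 29 and 54 in DESeq2.

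MiR-455-5p (0.30) reversed to -0.17 with median-ratio scaling, -0.047 in CPM without miR-148a-3p, -0.33 with quantile normalization, -0.15 with edgeR and -0.20 with DESeq2. MiR-1843a-5p (0.19) reversed to -0.27, -0.15, -0.14, -0.24 and -0.28 in the same order. These scalings also lower the median of all miRNAs, and relative to it both arms stayed below 0 in all 5. Over all alternatives they ran from -0.44 to 0.15 (miR-455-5p) and -0.37 to 0.039 (miR-1843a-5p) relative to it. MiR-3073b-5p moved to 1.63 at a pseudocount of 0.1 CPM.

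For the arms, leaving out 1 library gave 5p minus 3p from -2.91 to -2.30 in miR-3073b, 4.27 to 4.70 in miR-149, 3.83 to 4.22 in miR-455 and 5.28 to 5.83 in miR-1843a. With 5 libraries the exact test cannot go below 0.0625, so its p-values are not compared with those from all 6 libraries. Pseudocounts of 0.1 and 5 CPM left p at 0.03125 but moved miR-149 to 7.40 and 2.53 and miR-3073b to -3.55 and -1.50. The NC and the MAFLD libraries alone had the same direction in all 4 hairpins.

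MiR-3073b-3p passed the adjusted p with the replicate block (1 of 7 tested arms, against 5 of all 501 miRNAs). It also passed without the filter (1 of 8, against 11 of 1467). As it was chosen from this contrast, nothing is read from these calls. Deviations of same-numbered libraries had correlations of 0.012, -0.020 and -0.046. These give no sign of a pairing by number, which the labels do not state either, but cannot show that there is none. At 0 to 14 reads per NC library, counting error limits miR-3073b and miR-1843a-3p.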

Other observations

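MiR-455 is known as a regulator of brown fat cell formation, and other miRNAs with such a role were looked up as a list. Of 6 that promote it, 5 were tested, and of 6 that oppose it, 5 were tested. With limma 0 passed the adjusted p of 0.05 in either direction (0.200% of all tested miRNAs). At an unadjusted p under 0.05 in limma, 2 promoting and 3 opposing miRNAs were higher in MAFLD livers (13.4% of all tested miRNAs). EdgeR also called 0 in both lists (0.200% of all tested), and DESeq2 called 0 promoting and 1 opposing miRNA (5.59% of all tested). Limma without NC replicate 3 called 2 promoting and 3 opposing (22.8% of all tested). The median log2 difference was 0.90 for the promoting and 0.75 for the opposing list, against 0.43 for all tested miRNAs. With median-ratio scaling these medians were 0.45 and 0.28, against 0.044. All MAFLD livers lay above all NC livers in 2 of 5 tested promoting and 1 of 5 tested opposing miRNAs (15.2% of all tested). The other tested miRNAs of both lists overlapped, and the promoting miR-193b-3p had a log2 difference of -0.35 (standard error 0.60). Among those without overlap, the promoting miR-30c-5p stood at 1114 to 1982 CPM in NC and 2390 to 3827 CPM in MAFLD livers. The opposing miR-34a-5p, also without overlap, stood at 29.3 to 56.1 CPM in NC and 74.1 to 141 CPM in MAFLD livers.

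MiR-140, like miR-455 a miRNA of cartilage, overlapped between the groups in both arms. MiR-140-3p was at 655 ± 206 CPM (SD, n = 3) in NC and 1034 ± 239 CPM (SD, n = 3) in MAFLD livers, with a log2 difference of 0.68 (standard error 0.35). MiR-140-5p was at 25.7 ± 12.1 CPM (SD, n = 3) in NC and 36.2 ± 9.30 CPM (SD, n = 3) in MAFLD livers, with a log2 difference of 0.53 (standard error 0.47). Limma called 0 of these 2 arms (0.200% of all tested miRNAs), and 0 had an unadjusted p under 0.05 (18.0% of all). EdgeR (0.200% of all) and DESeq2 (5.59% of all) also called 0. Limma without NC replicate 3 called 1 (22.8% of all). With only 2 arms, nothing is read from these counts. The median of the 2 was 0.60, and 0.15 with median-ratio scaling.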
